A study of Mus musculus with 2 samples.

Results

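Keratins are the filament proteins of epithelial cells, and the mouse epidermis uses a different set in each layer and after injury. The 10 genes described here are 3 keratins of the basal layer (Krt5, Krt14 and Krt15), 3 of the suprabasal layers (Krt1, Krt10 and Krt2) and 4 wound-type keratins (Krt6a, Krt6b, Krt16 and Krt17). They were chosen by name, with earlier results of these data known, out of 22180 genes with a probe of their own on the array. Of the 10, 9 have such a probe, with 1 probe each, and Krt5 is read only by a probe that also lists Krt6a. Transcripts were measured in the back skin of NC/Nga females. This inbred strain is prone to dermatitis, which had been induced here with an ointment of house dust mite (Dermatophagoides farinae) body extract. The ZAG group also received recombinant ZAG (zinc-alpha-2-glycoprotein, a secreted lipid-mobilising protein) on the skin at 1 µg/mL, and the group labelled control did not. In both groups the mice entered at 6 weeks of age and were sampled at 13 weeks. Ointment and ZAG were each applied 2 times a week for 6 weeks. Skin without dermatitis was not analysed here, so the levels describe inflamed skin with and without ZAG, and the sources used here do not say whether the control received a vehicle. The design text names 3 mice per group, but the table holds 1 array per group, and the sources used here do not say whether an array is 1 mouse or a pool.

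Keratins assemble as pairs of a type I and a type II protein. Basal keratinocytes make the type II protein of Krt5 with the type I protein of Krt14, and cells that leave the basal layer switch to Krt1 (type II) with Krt10 (type I). After wounding or in inflamed, hyperproliferative epidermis, keratinocytes above the basal layer add Krt6a and Krt6b (type II) with Krt16 and Krt17 (type I). The wound-type genes are also active without injury in parts of the hair follicle, such as the outer root sheath and the companion layer. In bulk skin, fewer cells of a type and less RNA per cell cannot be told apart.

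All values below are log2 levels as deposited, and each difference is ZAG minus control. With 1 array per group there is no replicate error and no test, so every difference describes these 2 arrays. As scales for reading the values, the SD of the difference over the 11090 genes whose mean level reached the median of all genes (3.87) was 0.353. These are called the brighter genes below. Probes of 1 gene differed with an SD of 0.244 (591 genes with several probes). A background gauge of 3.16 was taken from 1394 genes of olfactory and vomeronasal receptors, as the 95th percentile of their mean level. Of the 10 epidermal keratinocyte markers checked, 9 had a probe of their own, and all 9 were above the gauge on both arrays, with levels of 5.73 to 12.16 with ZAG and 6.60 to 12.15 in control. These markers include the members Krt5, Krt14, Krt1 and Krt10, and the highest level on each array is that of Krt10.

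The wound-type keratins were lower in the ZAG array, by very different amounts from gene to gene. Krt6b, a type II wound keratin, was at 9.99 with ZAG and 11.96 in control, a difference of -1.97 (3.92-fold lower). Krt16, a type I wound keratin, was at 9.40 with ZAG and 11.07 in control, a difference of -1.67 (3.19-fold lower). Krt6a, the close relative of Krt6b, was at 10.56 with ZAG and 11.60 in control, a difference of -1.03 (2.05-fold lower), which is just past the 2-fold threshold. Averaged with the probe it shares with Krt5, Krt6a had a difference of -0.73, which is under 2-fold. Krt17, a type I keratin of stressed epidermis and of the hair follicle, was at 10.23 with ZAG and 10.31 in control, a difference of -0.08 (1.06-fold lower). The ZAG level was thus below the control level for all 4 genes, but for Krt17 the gap was smaller than the SD between probes of 1 gene. The class median was -1.35, beside a median of 0.02 over the 11090 brighter genes. Of the 4, 3 were at least 2-fold lower, where 1.15% of the brighter genes were, and 2 of the 4 with the shared probes used. Because the members were chosen with earlier results of these data known, this count is a description and not a test of the class. The 2-fold lower genes numbered 128 of 11090, and within them Krt6b stood 22nd from the lowest difference, Krt16 35th and Krt6a 118th.

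**Figure D1:**
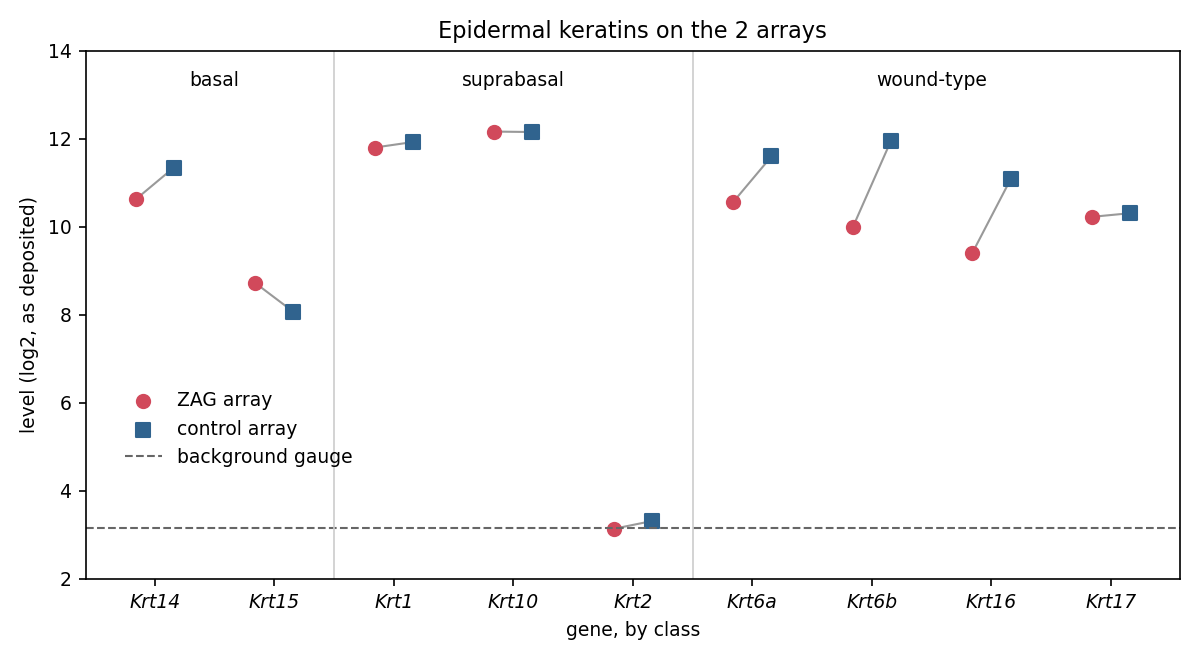
Log2 level of each epidermal keratin gene with a probe of its own (y axis) in the ZAG array (circles, left of each pair) and the control array (squares, right), with genes grouped by class on the x axis and the background gauge of 3.16 dashed. Krt6b, Krt16 and Krt6a are the pairs with gaps of over 1, Krt15 is the only basal gene shown that is higher with ZAG, and Krt2 lies at the gauge.

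**Figure D2:**
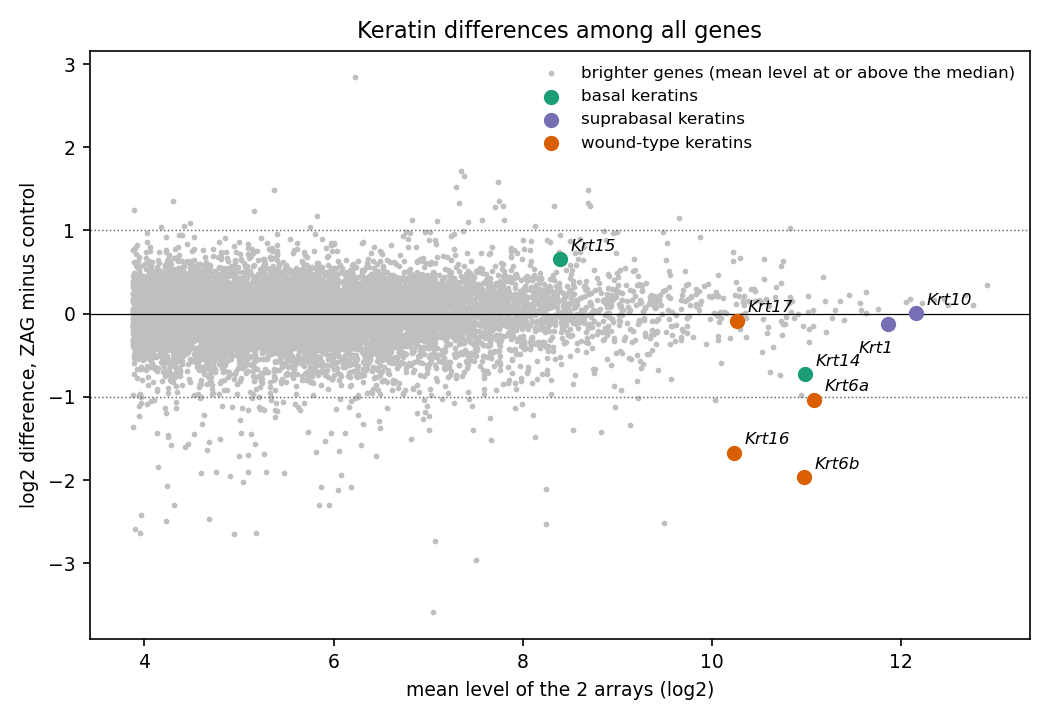
Log2 difference, ZAG minus control (y axis), against the mean log2 level of the 2 arrays (x axis) for the 11090 brighter genes (grey), with the 8 keratins of that range coloured by class and dotted lines at 2-fold. Krt6b (-1.97) and Krt16 (-1.67) lie lowest of the keratins shown, Krt15 (0.66) lies highest, and Krt10 and Krt17 lie nearest to 0.

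The basal keratins differed in opposite directions. Krt14, the type I keratin of basal keratinocytes, was at 10.62 with ZAG and 11.35 in control, a difference of -0.73 (1.65-fold lower). Krt15, a type I keratin of basal cells that also marks stem cells of the hair follicle bulge, was at 8.72 with ZAG and 8.07 in control, a difference of 0.66 (1.58-fold higher). Both differences exceed 0.353, the SD over genes. At least 1.5-fold lower were 5.08% of the brighter genes, and at least 1.5-fold higher were 2.48%. The ratio of Krt15 to Krt14, which does not depend on the overall scaling of an array, was 2.61-fold higher with ZAG. With Krt5 unmeasured on its own, the median of -0.03 over Krt14 and Krt15 describes neither gene.

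The probe that lists both Krt5 and Krt6a was at 10.88 with ZAG and 11.30 in control, a difference of -0.42. It was lower, by less than the probe of Krt6a alone (-1.03), and how much of its signal comes from either transcript was not tested. A second shared probe, listing Krt6b with the predicted gene Gm5478, was dim, at 2.16 with ZAG and 3.51 in control, with the ZAG value below the gauge. Probes of near-identical keratin copies may read more than 1 transcript, so the separation of Krt6a from Krt6b, and of Krt14, Krt16 and Krt17 from each other, is uncertain.

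The suprabasal keratins were nearly level. Krt1, the type II keratin of differentiating keratinocytes, was at 11.80 with ZAG and 11.93 in control, a difference of -0.13 as deposited, and of -0.30 to -0.15 under the 3 rescalings tried (median centring, quantile normalization and loess). Krt10, its type I partner, was at 12.16 with ZAG and 12.15 in control, a difference of 0.01 as deposited, and of -0.13 to -0.02 under the same rescalings. Neither difference as deposited reached 0.244, the SD between probes of 1 gene, but Krt1 passed it after quantile normalization (-0.30) and loess (-0.26). Both genes lie near the top of the deposited range, whose highest values were 13.19 with ZAG and 12.75 in control, and signal compression there was not tested. Krt2, a keratin of late suprabasal cells, was at 3.14 with ZAG and 3.31 in control, at the background gauge. Its difference is thus given only as at least 1.11-fold lower. Krt2 still counts as fully as the other genes in the class median of -0.13, which is the value of Krt1.

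Upstream sequences of the members were matched in a RefSeq table (build GRCm38.p6), which held windows for 4 of the 10: Krt5, Krt14, Krt10 and Krt2. The 250 bases before the start of Krt5 (chr15:101712906-101713155, minus strand) and of Krt10 (chr11:99389365-99389614, minus strand) are shown as 1 basal and 1 suprabasal example, since these genes are switched off and on as a cell leaves the basal layer. Start sites are those of the table, and for Krt14, Krt10 and Krt2 they lie inside the longest annotated span of the gene. Capitals mark a match to any of the motifs searched.
Krt5: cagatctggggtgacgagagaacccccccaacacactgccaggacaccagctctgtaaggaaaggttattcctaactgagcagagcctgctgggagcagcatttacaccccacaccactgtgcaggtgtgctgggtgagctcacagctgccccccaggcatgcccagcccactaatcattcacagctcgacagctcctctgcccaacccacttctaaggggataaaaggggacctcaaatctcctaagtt
Krt10: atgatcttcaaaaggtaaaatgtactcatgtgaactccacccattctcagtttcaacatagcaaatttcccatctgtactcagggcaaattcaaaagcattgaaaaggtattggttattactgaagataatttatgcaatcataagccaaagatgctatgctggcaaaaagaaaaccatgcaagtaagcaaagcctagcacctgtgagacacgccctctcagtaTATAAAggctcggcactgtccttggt
The motifs were searched on both strands: TGAGTCA and TGANTCA (AP-1, the second holding the first), TTCNNNGAA (STAT), GGGCGG (SP/KLF), GCCNNNGGC (AP-2) and TATAAA. The only match in the 4 windows was TATAAA in Krt10, starting 26 bases before the start site, and 12.4% of all 32851 windows hold it. TGAGTCA was found in 4.46% of windows, TGANTCA in 6.75%, TTCNNNGAA in 7.02%, GGGCGG in 32.7% and GCCNNNGGC in 13.7%. The absence of the other motifs says only that these letters are not in the 4 windows.

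Setting the classes against each other removes any constant offset between the arrays. The wound-type median was lower than the suprabasal median by a difference of differences of -1.23, and lower than the median of the basal genes Krt14 and Krt15 by one of -1.32. The suprabasal median counts Krt2, which lay at the gauge. The basal contrast became -0.77 when probes with several symbols were used, which brings in the only reading of Krt5. That same probe also enters the value of Krt6a, so it stands on both sides of the contrast. Within pairs of 1 type, Krt16 relative to the basal keratin Krt14 was 1.93-fold lower with ZAG, and Krt16 relative to the suprabasal keratin Krt10 was 3.21-fold lower. On the type II side, Krt6b relative to Krt1 was 3.59-fold lower and Krt6a relative to Krt1 was 1.88-fold lower. The ratio of Krt1 to Krt10, the suprabasal pair, was 1.10-fold lower. The wound-type genes also diverged among themselves, since Krt6b relative to Krt6a was 1.91-fold lower and Krt16 relative to Krt17 was 3.01-fold lower. These ratios show unequal change, not that any 1 gene stayed the same.

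Among keratin genes with a mean level above the gauge, most of the lower values were those of the members. The array had a probe of its own for 53 keratin genes, of which 45 had a mean level above the gauge. Of the 9 members in that range, 7 were lower and 2 higher (8 and 1 after each rescaling, when Krt10 turns), and of the other 36 keratin genes, 3 were lower and 33 higher under every scaling. The median was -0.18 for the members and 0.44 for the others, and of the brighter genes 47.6% were lower and 52.3% higher. The 3 lower keratins outside the members were Krt78 (-0.21), Krt24 (-0.15) and Krt80 (-0.04). Krt26, an inner root sheath keratin, was the 1 keratin gene at least 2-fold higher (1.13), where 0.271% of the brighter genes were. All 9 keratin genes of the follicle sheaths were higher, with a median of 0.51, and all 14 measured hair shaft keratins were higher, with a median of 0.52, under each scaling tried. On a linear scale summed over its genes, the sheath list had a log2 level of 13.17 with ZAG and 12.61 in control, and the shaft list 12.51 with ZAG and 11.93 in control. Krt75, a keratin of the companion layer, where Krt6a and Krt17 are also made, was at 9.09 with ZAG and 8.79 in control. The part that a different share of hair follicle in the 2 skin samples has in the values of Krt15 and Krt17 was not tested.

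Other epidermal keratins held no 2-fold difference. Krt23 was at 7.50 with ZAG and 6.67 in control (0.84 higher), Krt77 at 6.63 with ZAG and 6.18 in control (0.45 higher), and Krt79, a keratin of the upper hair canal, at 10.39 with ZAG and 10.18 in control (0.21 higher). Of the same list, Krt9, Krt76, Krt4, Krt13 and Krt12 were below the gauge on both arrays. Simple epithelial keratins reached at most 5.08 with ZAG and 4.91 in control (Krt8), and Krt19 and Krt20 were below the gauge on both arrays.

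Keratin genes lie in a type I cluster on chromosome 11 and a type II cluster on chromosome 15, and close neighbours in the clusters differed by unlike amounts. In the gene order of assembly GRCm38.p6, Krt14 (-0.73), Krt16 (-1.67) and Krt17 (-0.08) are consecutive keratin genes with probes of their own, with Krt42 (0.18) next. Krt6b (-1.97) and Krt6a (-1.03) are consecutive as well, flanked by the companion layer keratin Krt75 (0.30) and by the inner root sheath keratin Krt71 (0.32), with Krt5, read only by the shared probe, between Krt6a and Krt71. In each cluster a lower wound-type gene thus lies next to a keratin gene that was nearly level or higher.

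**Figure D3:**
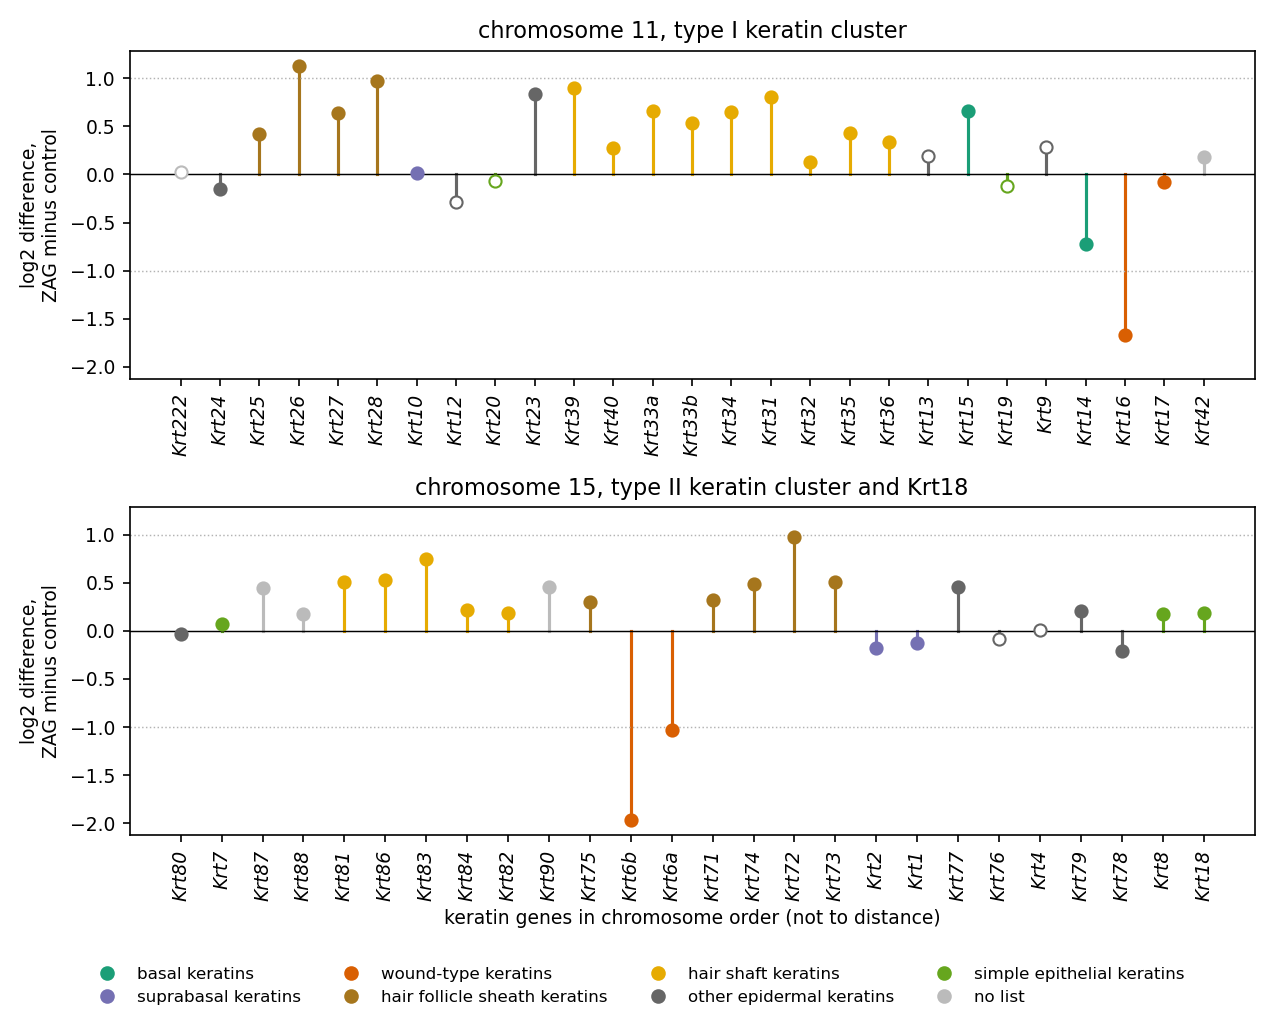
Log2 difference, ZAG minus control (y axis), of the 53 keratin genes with a probe of their own, in chromosome order but not to distance (x axis), coloured by list, with open points for mean levels below the background gauge and dotted lines at 2-fold. Krt16, Krt6b and Krt6a pass the lower line, Krt26 passes the upper line, and every hair sheath and hair shaft keratin is above 0.

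Most genes of a list of skin stress and wound genes were lower, as the wound-type keratins were. Which cells of the bulk skin made these transcripts was not tested. Of 27 in the list, 22 were measured, with 20 lower (21 after each rescaling), 15 at least 2-fold lower and a median of -1.36. Of the brighter genes, 47.6% were lower and 1.15% at least 2-fold lower. The list was chosen with earlier results of these data known, so its direction is a description and supports nothing about the keratins. The measured genes nearest in difference to Krt16, among 204 listed genes above the gauge on both arrays, were the envelope gene Sprr2d (-1.66), the alarmin gene Il33 (-1.71) and the protease inhibitor gene Slpi (-1.57). Those nearest to Krt6b were Cd14 (-1.94), which encodes an endotoxin co-receptor, the urokinase receptor gene Plaur (-1.90) and the matrix gene Tnc (-2.11). Those nearest to Krt15 were the envelope gene Ivl (0.65) and the hair shaft keratins Krt33a (0.65) and Krt34 (0.64). Likeness here is the gap between 2 differences over 2 arrays, which many genes share by their size alone. Genes outside the lists were not compared, and the lists were chosen with earlier results known. The kinds of gene found nearest thus depend on that choice.

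Genes that fasten keratin filaments to junctions and to the basement membrane were lower by smaller amounts. Of 16 anchoring and assembly genes, 14 were lower and none 2-fold lower, with a median of -0.28. For the brighter genes the shares were 47.6% lower and 1.15% at least 2-fold lower. Pkp1, a desmosomal plaque protein gene, was at 9.10 with ZAG and 9.77 in control, Jup, the plakoglobin gene, at 8.40 with ZAG and 9.11 in control, and Dsg3, a desmosomal cadherin gene of the lower layers, at 7.91 with ZAG and 8.60 in control. Dsp, which ties keratins to desmosomes, had a difference of -0.40, while Dsg1a (0.35) and Tchp (0.10), the gene of the keratin-binding protein trichoplein, were the 2 higher members. All 10 measured basal attachment genes were lower, with a median of -0.48, beside the lower Krt14. Among them were Itgb4 (-0.87), the hemidesmosome integrin chain gene, Lama3 (-0.75), a laminin chain gene, and Plec (-0.46), the gene of the keratin linker plectin.

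Among regulators of keratinocyte genes, 16 of 19 measured were lower and none 2-fold lower, with a median of -0.16. The share lower among the brighter genes was 47.6%, and 1.15% were at least 2-fold lower. Stat3, which carries cytokine signals, was at 7.68 with ZAG and 8.51 in control (-0.83). Klf4, a factor of barrier formation, was at 7.52 with ZAG and 8.24 in control (-0.72), and Nfe2l2, the oxidative stress factor gene, had a difference of -0.64. Trp63, the factor that specifies stratified epithelium, had a difference of -0.16, and Gata3 (0.13) and Cebpa (0.06) were higher by less than the SD between probes. Of 14 growth factor and cytokine receptor genes, 12 were lower, with a median of -0.36, among them Osmr (-1.11) and Il6st (-0.61), while Fgfr2 (0.39) and Il20rb (0.28) were the 2 higher members. Epidermal differentiation genes had a median of -0.18 over 21, with 16 lower (17 after loess), 1 of them 2-fold lower, the cornified envelope gene Rptn (-1.04).

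Cell cycle genes stayed close to the middle of all genes. Of 19 measured, 11 were lower and 8 higher (12 and 7 after loess), with a median of -0.02 and no 2-fold difference. The share lower among the brighter genes was 47.6%. Mki67, a proliferation marker, was at 7.90 with ZAG and 8.27 in control (-0.37). The list ran from Plk1 (-0.49) to Tyms (0.42), with Top2a (-0.02) nearly level and Pcna (0.18) higher. The median of 14 follicle stem cell and outer root sheath genes was -0.12, with 11 lower. These values stand beside the higher Krt15 and the nearly level Krt17.

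**Figure D4:**
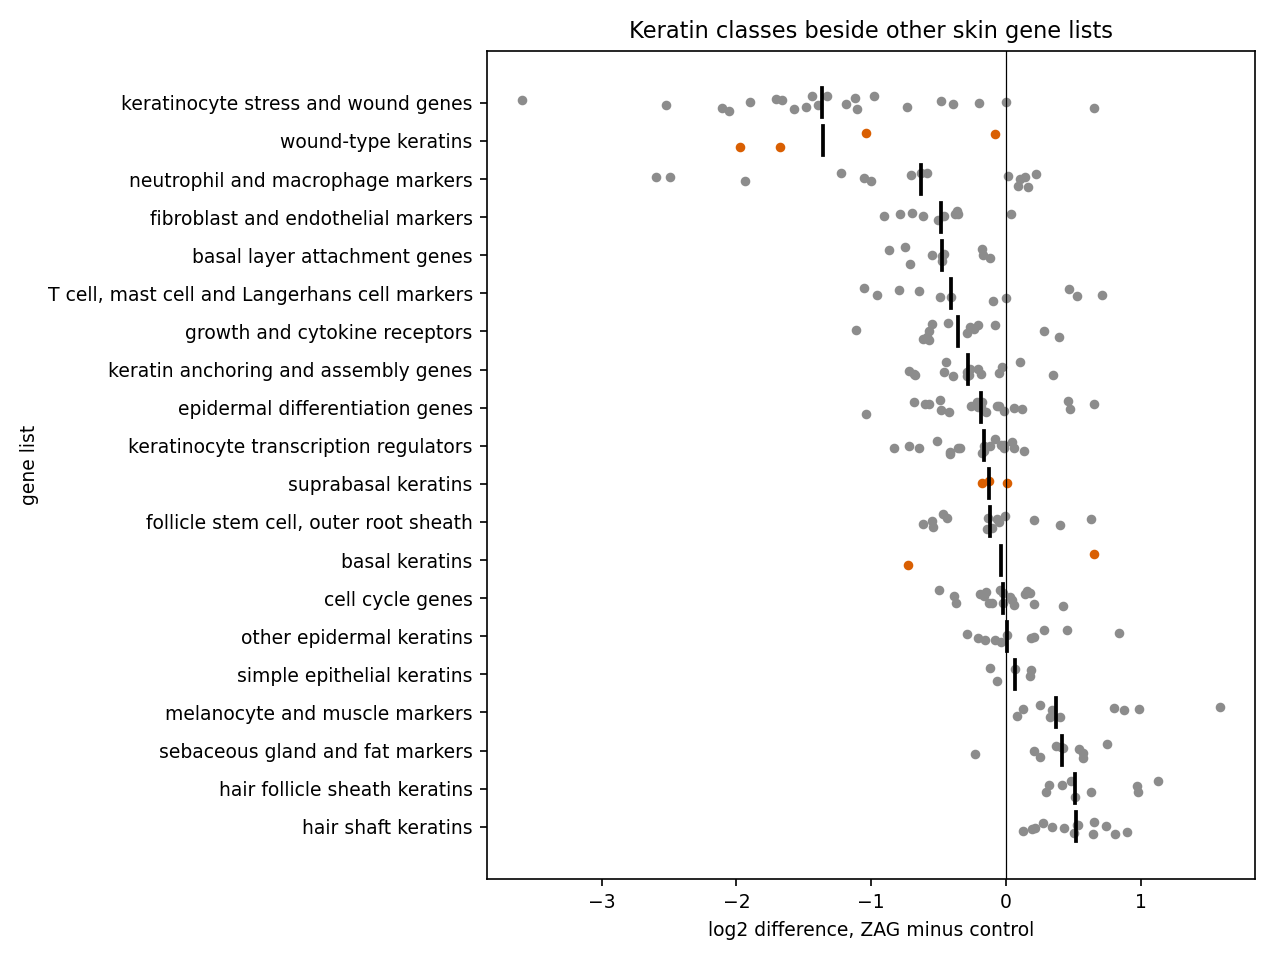
Log2 difference, ZAG minus control (x axis), of every measured gene in 20 lists (rows, ordered by median), with 1 point per gene, orange for the keratin members and grey for other genes, and a black bar at each median. The medians were -1.35 for the wound-type keratins, -1.36 for the stress and wound genes, and 0.51 and 0.52 for the 2 hair keratin lists.

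Marker lists of other cell types differed in both directions. Among the brighter genes, 47.6% were lower, 52.3% were higher and 1.15% were at least 2-fold lower. Of 15 neutrophil and macrophage markers, 9 were lower (10 after each rescaling) and 5 at least 2-fold lower, with a median of -0.63. Their summed level, as log2 of the linear sum, was 9.21 with ZAG and 10.05 in control. Of the 11 with a mean level above the gauge, 9 were lower and 2 higher. The 5 at least 2-fold lower were Cxcr2 (-1.05), Csf3r (-1.22), Cd14 (-1.94), Trem1 and Clec4e. Trem1 and Clec4e were below the gauge with ZAG, and are given as at least 4.96-fold and 4.08-fold lower. The neutrophil granule genes Ly6g, Ngp, Camp and Elane were below the gauge on both arrays, and Mpo was at 3.25 with ZAG and 3.09 in control. Of 10 fibroblast and endothelial markers, 9 were lower (10 after quantile normalization and loess), with a median of -0.48. Of 11 T cell, mast cell and Langerhans cell markers, 7 were lower and 3 higher (8 lower after each rescaling). The mast cell markers Tpsb2 (-0.95), Fcer1a (-0.79), Cpa3 (-0.65), Kit (-0.49) and Cma1 (-0.41) were lower. Cd207 (0.53) and Epcam (0.47), the Langerhans cell markers, were higher. The T cell markers differed among themselves, with Cd4 at -1.06, Cd3e at -0.10 and Cd3g at 0.72, and Cd8a was below the gauge on both arrays. Sebaceous and fat markers (9 of 10 higher, median 0.42) and melanocyte and muscle markers (10 of 10 higher, median 0.37) ran the other way. The part of these cell types in the keratin differences was not tested.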

How the data were processed

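Per the labels' protocols, biotin-labelled sense cDNA from total skin RNA was read on Affymetrix arrays. The values the authors deposited are log2 levels, a scale inferred from their range. The sources used here do not give the background correction, summarisation or normalization. The columns had medians of 3.36 (ZAG) and 3.33 (control). Of 33793 probes, 23521 had 1 gene symbol in the platform annotation, 1814 several and 8458 none. Probes with 1 symbol were used and averaged per gene, and every member but Krt5 has 1 such probe. Differences are ZAG minus control, without a test, since each group has 1 array, whose number limits the precision. Genes below the gauge on 1 array are given as at least a fold against the gauge.

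The members and the 20 gene lists were chosen with earlier results of these data known. All members were named; other genes were the other keratins, up to 2 each way from a list above the gauge on both arrays, the nearest genes in difference, and some list members chosen after their values were seen. Counts used all measured members of a list. Alternatives were median centring, quantile normalization, loess (span 0.3), the brightest or the median probe, probes with several symbols, level filters and a 1.5-fold threshold. The procedures were tested on simulated data. Computations used Python 3.11.15 with pandas 2.3.3, numpy 2.4.6 and statsmodels 0.14.6, and figures matplotlib 3.10.9.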

Additional observations from a re-analysis of the deposited data

How the results depend on the processing

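Under median centring, quantile normalization and loess, Krt6b reached -2.11 at most, Krt16 ranged from -1.77 to -1.70, Krt6a from -1.18 to -1.06, Krt14 from -0.84 to -0.75 and Krt15 from 0.59 to 0.63, each on the same side of 2-fold as deposited. Krt10 turned, from 0.01 as deposited to between -0.13 and -0.02. Krt1 ranged from -0.30 to -0.15. The brightest or median probe could not move any of the 9 members measured, since each of these has 1 probe. Using probes with several symbols took Krt6a to -0.73, which ended its 2-fold call, and Krt6b to -1.66. It gave Krt5 a value of -0.42, so the basal median became -0.42. The wound-type minus basal difference became -0.77, with the probe shared by Krt5 and Krt6a on both sides. Of all genes, 46 were at least 2-fold higher with no level filter (30 with it). With the filter raised to the 75th percentile, 62 were at least 2-fold lower (128 as reported). A 1.5-fold threshold counted 563 lower and 275 higher genes. The level filters change the number of genes that can be counted, while the 1.5-fold threshold changes only the cut-off. No paired analysis was possible because each group has 1 array. Signal over background limits Krt2, at the gauge, and the number of arrays limits every difference.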
